A study of Mus musculus with 9 samples.

Results

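MHC class II molecules present peptides from engulfed material to CD4+ T cells. In the mouse strain used here they are built from the chains of H2-A (H2-Aa and H2-Ab1) and, in principle, H2-E (H2-Eb1 pairs with an alpha chain that C57BL/6 mice do not make). The invariant chain Cd74 escorts new class II molecules to the endosome, where H2-DM (H2-DMa with H2-DMb1 or H2-DMb2) exchanges the remnant of the invariant chain for peptide. Ciita is the transactivator that binds no DNA itself but is recruited to a shared promoter module, the X and Y boxes, of these genes, and in macrophages it is known as a target of interferon gamma. Professional antigen-presenting cells, that is dendritic cells, B cells and activated macrophages, carry most class II RNA.

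The account covers the rows of 8 gene symbols, H2-Aa, H2-Ab1, H2-Eb1, Cd74, Ciita, H2-DMa, H2-DMb1 and H2-DMb2, out of 23413 in the deposited count table. All 8 had enough counts to be tested, among 11393 genes that did. The rule is a list of names and uses no measured value.

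RNA-seq was performed on macrophages sorted from the livers of male C57BL/6 mice, 1 mouse per library by the labels. There were 3 groups. The NC group (2 libraries) received normal chow and no treatment by the labels. The Veh group (3 libraries) received a high-fat diet (HFD) for 8 weeks from 5 weeks of age, with vehicle injected every 5 days from week 3, and the DPI group (4 libraries) received the same diet with DPI at 2 mg/kg on that schedule. DPI (diphenyleneiodonium) is the compound the study used as an agonist of the receptor GPR3, and it is also known as an inhibitor of flavin oxidases. The treatment text in the sample labels instead speaks of purified cells exposed to 500 nM DPI for 24 h, and the injection scheme of the design text was followed here. The sort took F4/80+CD11b+ cells with little Gr1. All groups were wild type, with no deletion or transgene named, and they shared the sort.

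Depth and cell identity bear on all results below. Library totals were 3534325 to 15585775 counts, of which 27% to 44.5% fell on the ribosomal RNA precursor Rn45s, and NC 1 had the fewest genes with a count (11105, against 11879 to 13451). The labels call the cells Kupffer cells, the resident macrophages of the liver. Of 12 Kupffer cell markers, those most particular to these cells were at or near 0 counts in most libraries: Marco had 1 count in all 9 libraries together, Timd4 had 0 to 28, Vsig4 had 0 to 49 and Clec4f had 0 to 6 except in NC 2 (244), Veh 1 (42) and DPI 1 (219). Folr2 and Cd5l were also at 0 in some libraries (6 and 2 of 9). Other genes of the list, which further macrophages also express, had counts in every library, such as C1qa (80 to 1776 counts), C1qb (199 to 5255), C1qc (113 to 1578) and Id3 (729 to 5064). Genes of macrophages in general were abundant in every library, with Lyz2 at 13960 to 42867 CPM and Csf1r at 385 to 750 CPM, and so was the monocyte marker Ly6c2 at 440 to 1490 CPM. The cells are called sorted liver macrophages here. CPM is the count relative to the library total, after scaling by edgeR's TMM factors. The floor of detection was set at 3 counts, which equal 0.184 CPM in the deepest library and 1.02 CPM in the shallowest. Floors cover counting error only.

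The class II genes lie within the MHC on chromosome 17 of mm10, apart from Cd74 and Ciita (chr16:10480059-10528418, plus strand). H2-DMa (chr17:34119541-34139101), H2-DMb2 (chr17:34143307-34151555), H2-DMb1 (chr17:34153072-34160230), H2-Ab1 (chr17:34257689-34269419) and H2-Eb1 (chr17:34305867-34316674) are on the plus strand, and H2-Aa (chr17:34282744-34287823) is on the minus strand (GENCODE M21).

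The promoter module through which Ciita is known to act can be read in these genes. RefSeq windows of 250 bases before to 50 bases after the start (build GRCm38.p6) were at hand for 5 of the 8 genes and for the class II genes H2-Eb2, H2-Oa and H2-Ob. The stretch from the X box region to the Y box is given 5′ to 3′ on the strand of the gene for the 5 genes that hold both. Capitals mark AACNGATG (the core of the X box) or, in H2-Aa, TGACGTCA (a cyclic AMP response element, the sequence that X2 factors bind), and then ATTGG (the reversed CCAAT of the Y box). The letters were chosen after the sequences had been seen.
H2-Aa: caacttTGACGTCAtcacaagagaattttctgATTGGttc
H2-Eb1: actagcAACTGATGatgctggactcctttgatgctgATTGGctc
H2-Eb2: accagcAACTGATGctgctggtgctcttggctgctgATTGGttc
H2-DMb1: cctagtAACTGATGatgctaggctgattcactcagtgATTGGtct
H2-DMb2: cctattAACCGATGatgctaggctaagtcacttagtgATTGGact

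The H2-Aa stretch lies at chr17:34287864-34287903, H2-Eb1 at chr17:34305772-34305815, H2-Eb2 at chr17:34325539-34325582, H2-DMb1 at chr17:34153093-34153137 and H2-DMb2 at chr17:34145122-34145166. The gap between the capitals was 18 bases in H2-Aa, 22 in H2-Eb1 and H2-Eb2 and 23 in H2-DMb1 and H2-DMb2, and the first motif began 74 to 130 bases before the RefSeq start, which for H2-DMb1 and H2-DMb2 lies downstream of the GENCODE gene start given above. Of 32544 windows of the same length searched on both strands, 2.32% held AACNGATG, 1.8% held TGACGTCA and 37.4% held ATTGG. AACNGATG followed by ATTGG on the same strand, with starts at most 40 bases apart, was found in 11 windows (0.0338%), 4 of them the class II genes shown. TGACGTCA followed by ATTGG in the same way was found in 50 windows (0.154%), H2-Aa among them. The 2 windows of H2-DMa and those of H2-Oa and H2-Ob held neither AACNGATG nor TGACGTCA, which says only that these letters are not there.

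Per length of transcript, the invariant chain and the H2-A chains stood highest and Ciita and H2-DMb2 lowest. The Veh means were 2267 ± 177 CPM per kilobase for H2-Ab1, 2153 ± 679 for Cd74, 1714 ± 65.2 for H2-Aa, 703 ± 54.4 for H2-Eb1, 188 ± 35.0 for H2-DMa, 156 ± 21.3 for H2-DMb1, 16.0 ± 2.74 for H2-DMb2 and 11.6 ± 7.52 for Ciita (SD, n = 3). In these libraries the neighbours H2-Ab1 and Cd74, H2-DMa and H2-DMb1, and H2-DMb2 and Ciita were within their spread of each other. In all 9 libraries Cd74 and H2-Ab1 took the first 2 places, followed by H2-Aa and H2-Eb1 in this order.

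The alpha chain H2-Aa was low in chow-fed mice and about 2 times as high on HFD. It was at 1064 and 845 CPM in NC 1 and 2, at 1849, 1981 and 1971 CPM in Veh 1 to 3 and at 1772, 3410, 3049 and 2040 CPM in DPI 1 to 4. Each HFD library was above both NC libraries, and the DPI libraries lay on both sides of the Veh libraries. The difference between Veh and NC was 1.02 ± 0.30 on the log2 scale (edgeR fold change ± standard error, 2.03-fold, unadjusted p = 0.00488), and that between DPI and NC was 1.43 ± 0.30 (2.69-fold, unadjusted p = 0.000321). DPI against Veh gave 0.41 ± 0.25 (edgeR unadjusted p = 0.121), and 0.23 without DPI 2.

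H2-Ab1, its beta chain partner, was at 1289 and 1507 CPM in the NC libraries, at 2543, 2729 and 2970 CPM in Veh and at 2432, 5480, 3555 and 2272 CPM in DPI. The NC and HFD libraries did not overlap, while DPI 1 and DPI 4 were below all Veh libraries and DPI 2 and DPI 3 above them. The log2 differences were 0.97 ± 0.34 for Veh against NC (edgeR unadjusted p = 0.0139), 0.32 ± 0.28 for DPI against Veh (unadjusted p = 0.273) and 1.30 ± 0.34 for DPI against NC (unadjusted p = 0.00191). Without DPI 2 the difference between DPI and Veh was -0.0039.

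H2-Eb1, the beta chain of H2-E, was at 760 and 499 CPM in NC, at 1230, 1069 and 1222 CPM in Veh and at 1010, 2085, 1621 and 1099 CPM in DPI. Again every HFD library was above both NC libraries. The log2 differences were 0.90 ± 0.34 for Veh against NC (edgeR unadjusted p = 0.0186), 0.31 ± 0.27 for DPI against Veh (unadjusted p = 0.282) and 1.21 ± 0.33 for DPI against NC (unadjusted p = 0.00264). The first was 1.24 without NC 1 and 0.66 without NC 2, and the second was 0.08 without DPI 2.

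**Figure D1:**
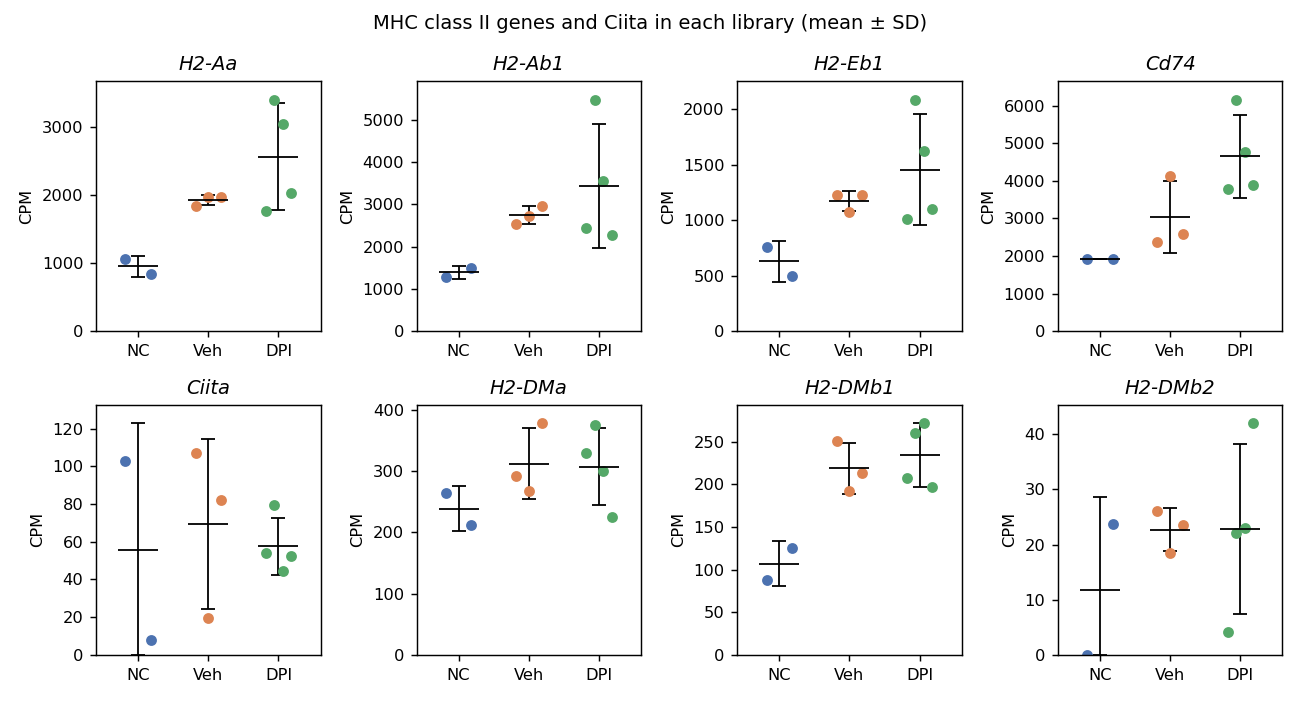
Level of each gene (CPM) in every library, by group (NC, Veh, DPI), with the mean and SD of the group as a line and bars that are cut at 0. H2-Aa, H2-Ab1, H2-Eb1, Cd74, H2-DMa and H2-DMb1 had both NC points below the 3 Veh points, whereas the ranges of Ciita and H2-DMb2 overlapped between all groups.

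The invariant chain Cd74 (chr18:60803848-60812652, plus strand) was the only gene of the 8 that differed between DPI and Veh at an unadjusted p under 0.05. It was at 1918 and 1913 CPM in NC, at 2385, 4134 and 2587 CPM in Veh and at 3786, 6161, 4760 and 3886 CPM in DPI. Veh 2 was above DPI 1 and DPI 4, and the other 2 Veh libraries were below all DPI libraries. The log2 differences were 0.66 ± 0.30 for Veh against NC (edgeR unadjusted p = 0.0427), 0.61 ± 0.25 for DPI against Veh (unadjusted p = 0.0265) and 1.28 ± 0.29 for DPI against NC (unadjusted p = 0.000717). Leaving out Veh 2 gave 0.38 for Veh against NC and 0.90 for DPI against Veh, and leaving out DPI 2 gave 0.44 for the latter. The unadjusted p of DPI against Veh was over 0.05 without Veh 1 (0.135), Veh 3 (0.122), DPI 2 (0.0941) or DPI 3 (0.0534) and by the likelihood ratio test (0.0504). That of Veh against NC was over 0.05 in 5 of 10 other settings, up to 0.203 with library size alone, and without NC 1, NC 2, Veh 2 or DPI 3.

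Of the H2-DM genes, the beta chain H2-DMb1 was past the study threshold against NC and the alpha chain H2-DMa was not. H2-DMb1 was at 88.4 and 126 CPM in NC, at 251, 193 and 213 CPM in Veh and at 207, 261, 272 and 198 CPM in DPI, with no overlap between NC and HFD libraries. Its log2 differences were 1.03 ± 0.31 for Veh against NC (edgeR unadjusted p = 0.00514), 0.10 ± 0.25 for DPI against Veh (unadjusted p = 0.708) and 1.13 ± 0.30 for DPI against NC (unadjusted p = 0.00221). H2-DMa was at 264 and 212 CPM in NC, at 291, 267 and 378 CPM in Veh and at 329, 374, 299 and 225 CPM in DPI. Its log2 differences were 0.39 ± 0.31, -0.024 ± 0.25 and 0.37 ± 0.29 in the same order (edgeR unadjusted p = 0.223, 0.925 and 0.23). The range of H2-DMa over the 9 libraries was 1.78-fold, against 3.08-fold for H2-DMb1.

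H2-DMb2, the other beta chain, was scarce and uneven. It had 0 and 127 counts in NC, 118, 102 and 95 in Veh and 69, 65, 124 and 412 in DPI, which is 0 and 23.7, 26.2, 18.5 and 23.5, and 4.22, 22.04, 23.0 and 42.0 CPM. Its log2 differences were 0.94 ± 1.19 for Veh against NC, 0.005 ± 0.96 for DPI against Veh and 0.94 ± 1.14 for DPI against NC (edgeR unadjusted p = 0.443, 0.996 and 0.422). Veh against NC was -0.05 without NC 1 and 10.26 without NC 2, where the only remaining NC library had 0 counts. DPI against NC ranged from -0.05 to 10.26 as each library was left out. H2-DMb1 and H2-DMb2 are near copies: 369 of 1355 words of 50 bases in the H2-DMb1 transcript (27.2%) also occur in H2-DMb2, and 431 of 1375 words of H2-DMb2 (31.3%) occur in 165 other genes. How their counts were split is therefore uncertain. H2-DMb2 made up 0% and 15.9% of the counts of both beta genes in NC, 8.76% to 9.93% in Veh and 2% to 17.5% in DPI. No such word of H2-Aa, H2-Ab1, H2-Eb1, Cd74, Ciita or H2-DMa occurs in another gene.

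Ciita, the transactivator, varied more within groups than between them. It was at 103 and 7.83 CPM in NC (567 and 42 counts), at 107, 19.4 and 81.9 CPM in Veh and at 53.9, 79.4, 44.5 and 52.7 CPM in DPI. Both NC and Veh held a library near the top and a library near the bottom of the whole range, and the DPI libraries lay between them. The log2 differences were 0.32 ± 0.80 for Veh against NC, -0.27 ± 0.66 for DPI against Veh and 0.05 ± 0.75 for DPI against NC (edgeR unadjusted p = 0.692, 0.686 and 0.948). Each comparison with NC rested on a single library: Veh against NC was 3.15 without NC 1 and -0.55 without NC 2, and DPI against NC was 2.88 and -0.81.

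The 3 class II chains summed to 3112 and 2852 CPM in NC, 5622, 5780 and 6164 CPM in Veh and 5214, 10980, 8224 and 5411 CPM in DPI. NC 1 and NC 2 thus had nearly the same chain level at the highest but one and the lowest Ciita level of all libraries. For each Ciita count there were 30.2 chain counts in NC 1 and 364 in NC 2, 52.5, 298 and 75.3 in Veh, and 96.8, 138, 185 and 103 in DPI. That ratio covered a 12.1-fold range. These are steady-state RNA levels in a mixture of cells, and the 9 libraries share the depth and Rn45s differences given above.

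**Figure D2:**
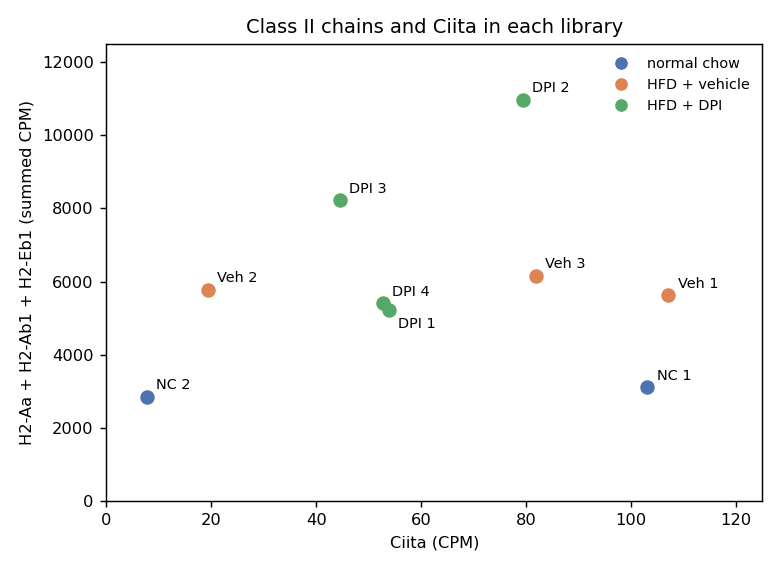
Summed level of H2-Aa, H2-Ab1 and H2-Eb1 (CPM, vertical axis) against the level of Ciita (CPM, horizontal axis), 1 point per library, coloured by group. NC 1 and NC 2 lie far apart on the Ciita axis (103 and 7.83 CPM) at chain levels of 3112 and 2852 CPM, and so do Veh 1 and Veh 2 at 5622 and 5780 CPM.

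Against H2-Ab1 in the same library, a measure that needs no scaling between libraries, the other chains kept within narrow limits. Per 100 H2-Ab1 counts there were 56.1 to 89.8 of H2-Aa (1.6-fold range over 9 libraries), 33.1 to 59 of H2-Eb1 (1.78-fold), 87.1 to 171 of Cd74 (1.96-fold) and 4.75 to 9.88 of H2-DMb1 (2.08-fold). H2-DMa per 100 H2-Ab1 counts was 20.5 and 14.1 in NC, 11.5, 9.79 and 12.7 in Veh and 13.5, 6.83, 8.42 and 9.92 in DPI, so that both NC libraries were above all HFD libraries. Ciita covered 0.52 to 8, a 15.4-fold range. H2-Ab1 itself was higher on HFD, so a gene of steady level also has a higher ratio to it in NC. In CPM, H2-DMa was lower in both NC libraries than in every Veh library. How many of all genes separate the groups by this ratio was not counted. The 8 genes together took 0.646% and 0.573% of all counts in NC, 0.858%, 1.04% and 0.776% in Veh and 1.01%, 1.49%, 1.37% and 1.04% in DPI. Of the counts without Rn45s they took 0.988% and 0.832% in NC, 1.36%, 1.43% and 1.4% in Veh and 1.39%, 2.6%, 1.96% and 1.49% in DPI.

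**Figure D3:**
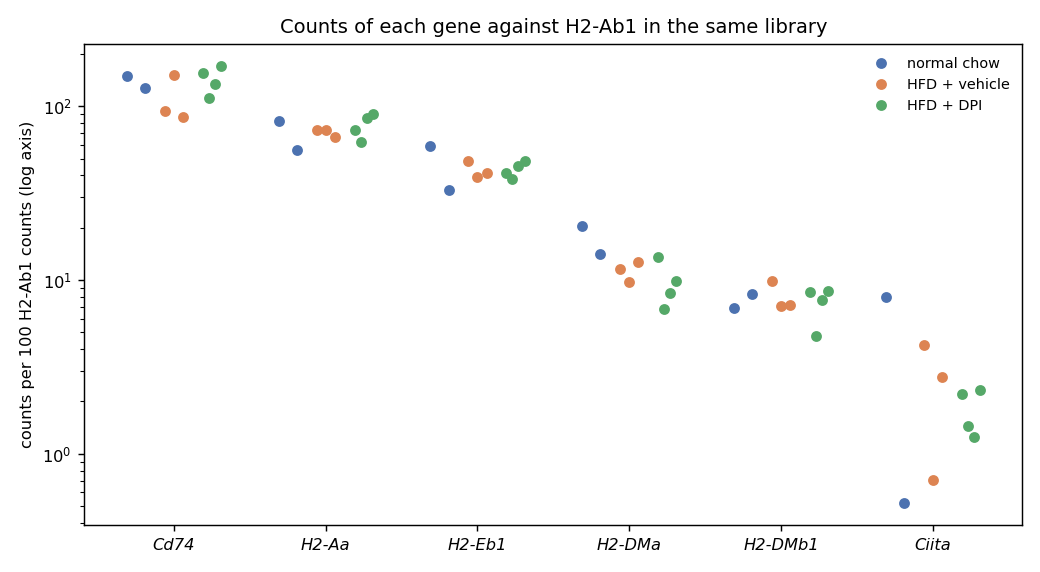
Counts of each gene per 100 counts of H2-Ab1 in the same library (log axis), 1 point per library, coloured by group. H2-Aa and H2-Eb1 cover less than a 2-fold range, and Ciita covers a 15.4-fold range with NC at both ends. The ratio of H2-DMa is highest in the 2 NC libraries, where the CPM of H2-Ab1, the divisor, is lowest.

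To ask what the diet did, Veh was set against NC. In the study a gene was called where its fold change was 1 or more on the log2 scale, up or down, and p before adjustment was under 0.05. Of the 8 genes, 2 passed this threshold, H2-Aa and H2-DMb1, both higher, in a comparison where 7.03% of all tested genes were called higher and 4.63% lower. An unadjusted p under 0.05 was reached by 5 of the 8 (H2-Aa, H2-Ab1, H2-Eb1, Cd74 and H2-DMb1, all higher), against 7.76% of all genes in this direction. This count was 3 to 5 under other settings, with 3 for library size alone and for the fit without NC 1. In 6 of the 8, all but Ciita and H2-DMb2, each Veh library was above both NC libraries, as it was for 15% of all genes, with 12.5% the other way. The median log2 fold change was 0.92 over the 8 genes and 0.03 over all tested genes. After adjustment over all genes by the Benjamini-Hochberg method edgeR called 0 of the 8 (smallest adjusted p = 0.228) and 0.0614% of all genes as higher, while DESeq2 called 1 (2.74% of all genes) and edgeR's likelihood ratio test 0 (2.46%). H2-Aa fell below the fold limit without NC 2 (0.89), and H2-DMb1 did so without NC 1 (0.81) or Veh 1 (0.97). Both did so with library size alone (0.72 and 0.75). H2-Aa also did with RLE size factors (0.99), the replicate number as a block (0.95) and DESeq2 (0.99).

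To ask what DPI did on the diet, DPI was set against Veh. None of the 8 genes passed the study threshold, which 1.5% of all tested genes passed as higher and 1.34% as lower. Cd74 alone had an unadjusted p under 0.05, as 1.96% of all genes did in the higher direction. No gene of the 8 had all DPI libraries above or below all Veh libraries (3.38% and 2.48% of all genes). The log2 differences were positive for 6 genes and negative for Ciita and H2-DMa, with a median of 0.2 against 0.04 over all genes. After adjustment edgeR called 0 of the 8 (0% of all genes), as did its likelihood ratio test (0.00878%) and DESeq2 (0.0176%). The SD of H2-Ab1 was 1478 CPM in DPI, with DPI 2 highest at 5480 CPM, and 214 CPM in Veh. This gap differed by gene: the SD in DPI and Veh was 1099 and 957 CPM for Cd74 and, the other way, 15.1 and 45.15 CPM for Ciita.

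The comparison of DPI with NC joins diet and compound, and it shares the NC libraries with Veh against NC. The study threshold was passed by 5 of the 8 genes, H2-Aa, H2-Ab1, H2-Eb1, Cd74 and H2-DMb1, all higher, where 6.24% of all tested genes were called higher and 3.05% lower. In these 5 each DPI library was above both NC libraries (11.7% of all genes, with 8.5% the other way). The median log2 fold change was 1.17, against 0.04 over all genes. After adjustment edgeR called 0 of the 8 (smallest adjusted p = 0.109, for H2-Aa, with 5 of 8 at an unadjusted p under 0.05 and higher, as 7.13% of all genes were) and 0.00878% of all genes as higher, the likelihood ratio test 2 (1.63% of all genes, in either direction) and DESeq2 5 (1.92%). The calls of H2-Eb1 and H2-DMb1 were lost without NC 2 (0.97) and without NC 1 (0.91), respectively. Both were also lost with library size alone, where H2-Eb1 was at 0.95.

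**Figure D4:**
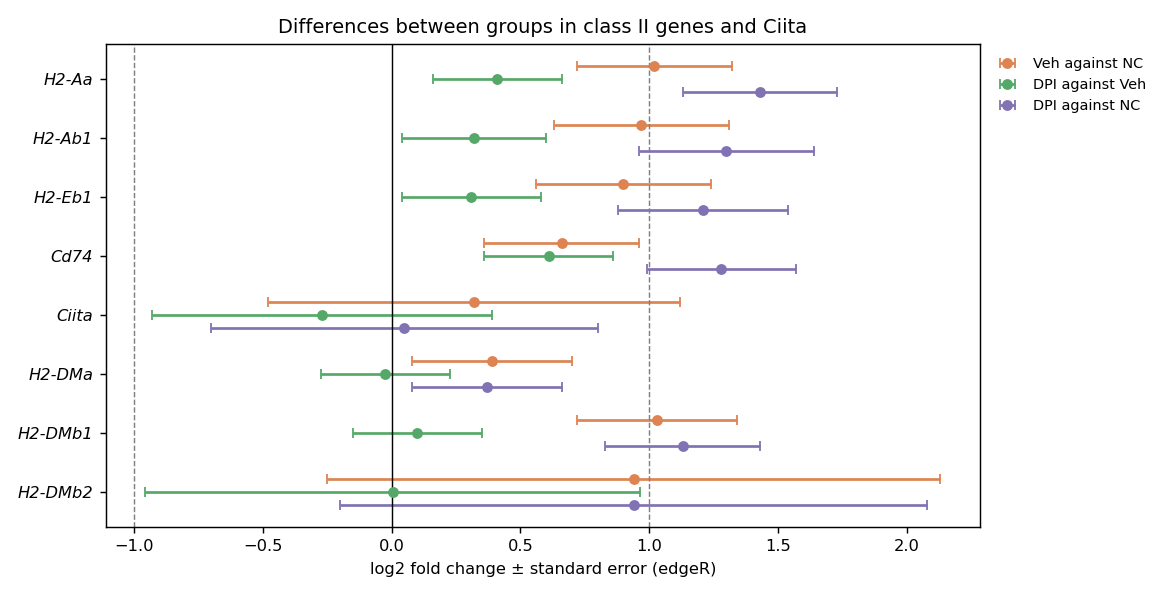
Log2 fold change of each gene with its standard error (edgeR) in the 3 comparisons, dashed lines marking the fold limit of the study threshold. The class II chains, Cd74 and H2-DMb1 lie at 0.66 to 1.03 for Veh against NC and at 1.13 to 1.43 for DPI against NC, while H2-DMb2 and Ciita have the widest bars.

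In bulk RNA a smaller share of class II-rich cells and less class II RNA per cell cannot be told apart, so the levels of markers of other cells are given here. A sort on F4/80 and CD11b with little Gr1 would be expected to remove most B cells, T cells and neutrophils. The 12 dendritic cell markers summed to 177 to 186 CPM in NC, 258 to 376 CPM in Veh and 202 to 512 CPM in DPI. Of its 11 tested genes, Mgl2 and Ccr7 were past the study threshold as higher in Veh than in NC, Mgl2 and Cd209a in DPI against NC, and none in DPI against Veh. Ccr7, which guides mature dendritic cells to lymph nodes, was at 0 and 46.6 CPM in NC, 114, 276 and 142 CPM in Veh and 33.9, 73.9, 122 and 319 CPM in DPI. Zbtb46, which defines classical dendritic cells, had 0 to 13 counts except in NC 2 (40). The 10 B cell markers summed to 32.9 to 89.3 CPM in NC, 117 to 210 CPM in Veh and 23.7 to 495 CPM in DPI, with Blk and Cd79b past the study threshold in both comparisons with NC. The B cell sum was thus higher in every Veh library than in both NC libraries, as the class II chains were. So was the dendritic cell sum, but by Ccr7: without it that sum was 186 and 131 CPM in NC, 144, 100 and 153 CPM in Veh and 168 to 214 CPM in DPI. The median log2 difference of the 11 tested dendritic cell genes was -0.17 for Veh against NC, with Flt3, Zbtb46, Xcr1, Clec9a, Batf3 and Itgax at negative values, none past the threshold, and that of the 10 B cell genes was 1.49. The part of these cells in the result was not tested.

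Within the DPI group the order differed. DPI 2 had the highest chain sum (10980 CPM) with the lowest B cell sum (23.7 CPM), and DPI 4 had the highest B cell sum (495 CPM) and dendritic cell sum (512 CPM) with a chain sum of 5411 CPM. The monocyte list (7 genes) summed to 4261 to 4311 CPM in NC, 4223 to 5102 CPM in Veh and 3624 to 8108 CPM in DPI, with a median log2 difference of -0.1 for Veh against NC. Of its members Ly6c2 was past the study threshold as higher in Veh than in NC (1.04 ± 0.35, edgeR unadjusted p = 0.0111) and the chemokine receptor Ccr2 as lower (-1.23 ± 0.45, unadjusted p = 0.0175). The Kupffer cell list (12 genes) summed to 498 to 619, 584 to 1234 and 649 to 1194 CPM, and the neutrophil list (7 genes) to 1055 to 3070, 2343 to 3621 and 712 to 5124 CPM. Of the neutrophil genes, Camp (-1.18 ± 0.47) and Mmp8 (-1.13 ± 0.45), both granule genes, were past the study threshold as lower in Veh than in NC. The neutrophil list's median for Veh against NC was 0.56, however. S100a8 (0.64), S100a9 (0.77), Retnlg (0.56) and Cxcr2 (1.2) were positive, none past the threshold, and Ltf (-0.38) was negative. The macrophage list (9 genes) summed to 19573 to 25533, 15618 to 26911 and 22153 to 44341 CPM, of which Lyz2 made up 89.4% to 96.7%. Genes of the macrophage and Kupffer cell lists went both ways between NC and Veh at the study threshold, with Aif1 (1.57 ± 0.48, edgeR unadjusted p = 0.00566) and Id3 (1.76 ± 0.46, unadjusted p = 0.00215) higher in Veh, and Emr1, which encodes F4/80 (-1.05 ± 0.38, unadjusted p = 0.0152), and C1qa (-1.37 ± 0.57, unadjusted p = 0.0304) lower. T and NK cell markers (10 genes) summed to 88.9 to 319, 214 to 409 and 274 to 527 CPM, with Cd3e (2.23 ± 0.59) and Lck (1.29 ± 0.56) past the study threshold as higher in Veh than in NC and both, with Cd3d, in DPI than in NC. The median of this list for Veh against NC was 0.72, with Ncr1 (-1.09), Gzma (-0.21) and Cd8a (-0.13) negative. Plasmacytoid dendritic cell markers (5 genes, Klk1 at 0 in all libraries) summed to 21.6 to 54.2, 26.6 to 48.1 and 17.6 to 43.6 CPM, and eosinophil markers (5 genes) to 5.59 to 6.55, 6.93 to 8.69 and 5.37 to 98.3 CPM. The eosinophil granule gene Prg2 had 0 to 10 counts in NC and Veh and 1296, 265, 2 and 468 in DPI, and Epx had 0 in NC and Veh and 151, 18, 0 and 101 in DPI. The sums of markers of liver cells outside the gate were lower in Veh than in NC. Hepatocyte markers (6 genes) summed to 104 to 193 CPM in NC, 14.7 to 38.6 CPM in Veh and 25.1 to 78.7 CPM in DPI (Alb, Ttr and Serpina1a past the study threshold as lower in Veh than in NC), and liver endothelial markers (6 genes) to 117 to 182, 9.42 to 12.9 and 4.26 to 139 CPM. The endothelial Stab2, Clec4g and Kdr were past the study threshold as lower in Veh than in NC, and Pecam1, which immune cells also express, as higher (2.66 ± 1.05, edgeR unadjusted p = 0.025). The levels of Stab2 and Clec4g were highest in the NC libraries, DPI 1 and DPI 2, and the part of these cells in the class II levels was not tested either. Between DPI and Veh, where Cd74 was higher at an unadjusted p under 0.05, 8 genes of the marker lists were past the study threshold, all higher in DPI: Prg2 and Epx of eosinophils, Camp and Ltf of neutrophils, C1qa and C1qc of the Kupffer cell list and Stab2 and Clec4g of endothelial cells. Of all tested genes 1.5% were called higher and 1.34% lower. The list medians were 6.31, -0.31, 0.76 and 2.98 in this order. S100a8, S100a9, Retnlg and Cxcr2 of the neutrophil list and Id3, Slc40a1 and Nr1h3 of the Kupffer cell list had negative values. Between DPI and NC, Prg2, Epx, Id3 and Pecam1 were past it as higher and Alb and Serpina1a as lower, beside the dendritic, B and T cell genes named above.

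**Figure D5:**
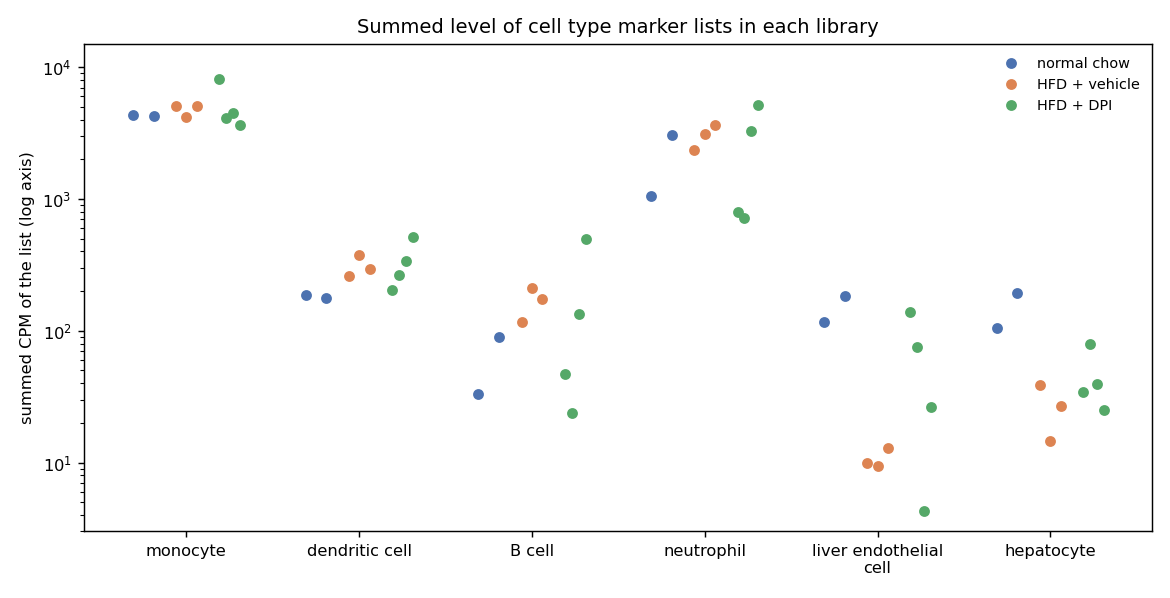
Summed level (CPM, log axis) of 6 lists of cell type markers in each library, coloured by group. The B cell list and, through Ccr7, the dendritic cell list are lower in the 2 NC libraries than in the 3 Veh libraries, the hepatocyte and endothelial sums are higher there, and the B cell list covers 23.7 to 495 CPM within DPI.

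Genes of the same pathway outside the 8 were counted in 6 lists at the study threshold, and edgeR called 0 of their genes after adjustment in any comparison. H2-O, an inhibitor of H2-DM found mostly in B cells, is encoded by H2-Oa and H2-Ob, and neither they nor H2-Eb2 were past the threshold in any comparison. H2-Oa was at 0.546 and 10.3 CPM in NC, 23.7, 11.4 and 15.3 CPM in Veh and 7.53, 8.82, 13.2 and 30.2 CPM in DPI (Veh against NC 1.64 ± 0.97, edgeR unadjusted p = 0.113). The highest level of H2-Oa was in DPI 4, where the B cell sum was highest too. The pseudogene H2-Ea-ps, in place of the missing H2-E alpha chain, had 2 counts in Veh 2 and 0 elsewhere.

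Of 7 genes that trim the invariant chain or break down antigen (the cathepsins Ctss, Ctsl, Ctsb and Ctsd, Lgmn, Ifi30 and Sppl2a), 0 were past the threshold in each comparison. The smallest p was that of Ctsl, at 101 and 88.6 CPM in NC, 71.6, 78.4 and 38.1 CPM in Veh and 62.0, 41.7, 50.9 and 56.8 CPM in DPI (DPI against NC -0.84 ± 0.34, edgeR unadjusted p = 0.0269). The medians of this list were 0.17, 0 and 0.02 for Veh against NC, DPI against Veh and DPI against NC, whereas those of the 8 class II genes were 0.92, 0.2 and 1.17.

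Of 11 factors that bind the X and Y boxes or act with Ciita (RFX, NF-Y, Creb1 and histone-modifying enzymes), 0 were past the threshold in Veh against NC and in DPI against Veh. In DPI against NC, 1 was higher, Nfyb, a subunit of the factor that binds the Y box (1.40 ± 0.61, edgeR unadjusted p = 0.0388), and 1 was lower, the acetyltransferase Kat2b (-2.01 ± 0.69, unadjusted p = 0.0114). Nfyb was at 4.91 and 11.0 CPM in NC and at 15.9, 29.2, 25.8 and 13.8 CPM in DPI. Kat2b was at 39.1 and 13.8 CPM in NC and at 12.8, 7.12, 2.04 and 3.97 CPM in DPI. Of all tested genes 6.24% were called higher and 3.05% lower in DPI against NC. Of the RFX genes, Rfx5 had 0 and 6 counts in NC and 3 to 99 on HFD, and Rfxap had 2 to 52 counts. Their standard errors for Veh against NC were 1.7 and 1.37, so the lack of a call says little about them.

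Of 7 genes on the path from interferon gamma to Ciita (among them the receptor chains, Jak1, Jak2, Irf1 and the feedback inhibitor Socs1), Socs1 alone was past the threshold. It was at 7.27 CPM in both NC libraries, at 27.7, 22.3 and 40.1 CPM in Veh and at 13.8, 20.7, 18.2 and 12.9 CPM in DPI, so that the 3 groups did not overlap. The log2 differences were 2.04 ± 0.53 for Veh against NC (edgeR unadjusted p = 0.00201), -0.88 ± 0.41 for DPI against Veh (unadjusted p = 0.0501) and 1.16 ± 0.50 for DPI against NC (unadjusted p = 0.0355). Of all tested genes, 15% had every Veh library above both NC libraries, and 11.7% had every DPI library above both. In 2.48% of all genes every DPI library was below every Veh library. The list's medians were 0.22, -0.21 and 0.2.

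Of 8 genes of class II turnover and transport, Pikfyve, a lipid kinase of endosomes, was higher in Veh than in NC (2.73 ± 0.96, edgeR unadjusted p = 0.0135) and in DPI than in NC (2.33 ± 0.92, unadjusted p = 0.0246), with 0.909 and 2.98 CPM in NC and 5.98 to 26.4 CPM on HFD. Arl14ep, which links class II vesicles to the cytoskeleton, was higher in DPI than in NC (2.03 ± 0.87, unadjusted p = 0.0366). The ubiquitin ligases March1 and March8, which remove class II from the surface, were not past the threshold in any comparison.

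Cd74 also serves at the cell surface as the receptor of the cytokine Mif, with Cd44, Cxcr4 and Cxcr2 as partners. Of these 4 genes, Cxcr4 was past the threshold in Veh against NC (1.78 ± 0.61, edgeR unadjusted p = 0.0115) and, in the other direction, in DPI against Veh (-1.08 ± 0.47, unadjusted p = 0.0396). It was at 60.4 and 59.1 CPM in NC, 239, 194 and 182 CPM in Veh and 28.0, 54.6, 123 and 182 CPM in DPI, where DPI 4 reached the Veh level. Cxcr4 thus stood lower in DPI than in Veh in these libraries while Cd74 stood higher.

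The genes outside the 8 whose pattern over the 9 libraries was most like their mean were looked for next. The pattern, the mean log2 CPM of the 8 genes centred over the libraries, was -1.07 and -0.81 in NC, 0.29, -0.04 and 0.3 in Veh and -0.13, 0.78, 0.46 and 0.23 in DPI. All 8 genes had equal weight in it, also H2-DMb2 with 0 counts in NC 1 and Ciita with 7.83 CPM in NC 2. How far H2-DMb2 and Ciita set the pattern and the choice of its nearest genes was not tested. By root mean square difference over the 9 libraries the 6 nearest genes, the 8 themselves left out, were Rpl12 (0.226), Papd4 (0.242), Rpl32 (0.255), Rbm7 (0.257), Gm12191 (0.261) and Bzw1 (0.264), against a median of 0.951 for all other tested genes. Rpl12 and Rpl32 encode ribosomal proteins, and the mean level of Rpl12 was 532 CPM in NC, 1060 CPM in Veh and 1020 CPM in DPI.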

How the data were processed

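Polyadenylated RNA of 9 libraries of sorted mouse liver macrophages was analysed, and every column of the deposited table belonged to one of them (0 columns not used). The authors aligned reads to mm10, estimated gene counts with bowtie2 2.2.3 and RSEM 1.2.15 and deposited whole-number raw counts, not normalized. The submitters' processing notes name TopHat2 and edgeR instead. Whether counting used the strand is not given in the sources used here. Groups and replicate numbers came from the labels. Same-numbered libraries of different groups deviated together with correlations of only -0.0222 to 0.0841, so the numbers were not taken to pair mice. The labels number 1 mouse per library, while the study's legend gives more mice in a group than there are libraries, so whether a library is a single mouse is open to doubt, and p-values measure the spread between libraries.

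Genes passing filterByExpr (11393) were fitted with edgeR 4.0.16 (R 4.3.3; TMM, glmQLFit and glmQLFTest, 3 groups in 1 model, biological coefficient of variation 0.65). Calls used, as in the study, a change of at least 1 on the log2 scale together with p under 0.05 before adjustment, or a Benjamini-Hochberg adjusted p under 0.05 over all tested genes. The 3 comparisons were tested without further correction between them. Log2 CPM used a prior count of 2. Lengths were those of the principal transcripts of GENCODE M21, and promoter windows came from RefSeq. DESeq2 1.42.0, limma 3.58.1, Python 3.11.15, numpy 2.4.6, pandas 2.3.3 and matplotlib 3.10.9 were also used. The test was also run on simulated counts in which 200 genes were changed, and the outcome is not given here. The 8 genes, the pathway lists and the markers were chosen with earlier results of these data known. From the pathway lists, genes past the study threshold were named, at most 3 a list and comparison, or else the gene with the smallest p. From the marker lists, genes at 0 everywhere and the 2 most abundant ones fell under the rule, and the 6 genes nearest in pattern were added. Defining markers (Marco, Timd4, Vsig4, Clec4f, Zbtb46) and markers past the study threshold were named after their values had been seen. So were the other Kupffer, dendritic, neutrophil, T and NK cell genes given with counts, values or signs. The same holds for Rfx5, Rfxap, H2-Ob, H2-Eb2, H2-Ea-ps, March1 and March8. Alternatives were RLE or library size scaling, 2 other filters on low counts, Rn45s left out, counts thinned to the smallest library, the replicate number as a block, 2 groups only, edgeR's likelihood ratio test, DESeq2 and each library left out.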

Additional observations from a re-analysis of the deposited data

How the results depend on the processing

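The counts of calls depended on single libraries, on scaling and on the tool. For Veh against NC, 2 genes passed the study threshold in the fit reported and 1 did with RLE size factors, 0 with library size alone, 1 with the replicate number as a block (replicate block), 1 with DESeq2 and, in the other direction, 3 with Rn45s left out, where H2-Ab1 reached 1. Leaving out 1 library at a time gave 2 to 3. The adjusted count of 0 became 1 with DESeq2 (calls over all genes going from 7 to 312) and 0 to 1 with a library left out, the 1 being H2-DMb2 without NC 2, where the only remaining NC library had 0 counts and the fitted value is no bound. For DPI against NC, 5 genes passed the study threshold, 3 with library size alone and 5 in each fit without a library, though not always the same genes, as H2-Eb1 or H2-DMb1 left and Ciita or H2-DMb2 entered. The adjusted count of 0 became 2 with edgeR's likelihood ratio test, 5 with DESeq2 and 0 to 1 with a library left out, while calls over all genes went from 1 to 186, 219 and, without NC 2, 572. For DPI against Veh, both counts were 0 under all alternatives run. The cause of these changes was not tested. Library size alone also moved the median of all genes to -0.26, 0.12 and -0.17 for Veh against NC, DPI against Veh and DPI against NC, from 0.03, 0.04 and 0.04.

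With all libraries kept, signs changed for 3 genes, in comparisons where the value reported was smaller than its standard error. Ciita was at -0.022 (Veh against NC) and -0.22 (DPI against NC) with library size alone and at 0.28 (DPI against Veh) with the replicate block. For DPI against Veh, H2-DMa was at 0.05 with library size alone, 0.11 with the block and 0.0013 with thinned counts, and H2-DMb2 at -0.0055 with RLE, -1.15 with the block, -0.0075 without Rn45s, -0.0044 with DESeq2 and -0.028 with 2 groups only. Leaving out each library gave ranges, for Veh against NC, of -0.55 to 3.15 for Ciita and -0.05 to 10.26 for H2-DMb2, for DPI against Veh of -0.0039 to 0.48 for H2-Ab1, -0.72 to 0.19 for Ciita, -0.14 to 0.13 for H2-DMa and -0.48 to 0.36 for H2-DMb2, and for DPI against NC of -0.81 to 2.88 for Ciita and -0.05 to 10.26 for H2-DMb2. Of 453 alternative values of single genes, 191 of those with a library left out and 218 of the others kept their direction and their side of the study threshold. The others were 12 reversed, 8 newly past the threshold and 5 no longer past it with a library left out, and 11, 1 and 7 under the other settings. The block changed no other call, apart from H2-Aa in Veh against NC (0.95). A filter of 10 counts in every library left no value for H2-DMb2. The 2 NC libraries limited every comparison with chow.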
